A study of Mus musculus with 6 samples.

Results

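The distal microRNA cluster of the imprinted Dlk1-Dio3 locus was followed in mouse aortas with and without Dicer in lysozyme M-expressing cells. Its members were the TaqMan assays whose microRNA number is one of 33 numbers assigned to this cluster, with any letter or arm label and without star (passenger) strands. This rule found 36 assays of the 517 microRNA assays on the arrays, for 30 of the 33 numbers. The Dicer_KO group held 3 aortas of LysM-Cre/Dicerflox/flox/Apoe-/- mice and the Dicer_WT group 3 aortas of LysM-Cre/Dicerwt/wt/Apoe-/- littermates, so that both groups carried the Cre and lacked Apoe. All mice were male, and from 6 to 8 weeks of age they ate a high-fat diet with 21% crude fat for 12 weeks. The Cre is driven by the lysozyme M gene, which is active in macrophages and neutrophils, whereas the RNA came from the whole vessel, and Dicer itself was not measured on these microRNA arrays. The labels name macrophage as the cell type, but smooth muscle miR-143 and miR-145 and endothelial miR-126-3p and miR-126-5p were detected in all 6 aortas, as were 8 of 9 myeloid marker assays. In such bulk RNA, fewer cells of a type and less RNA per cell cannot be told apart.

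The Dlk1-Dio3 locus is imprinted: its long non-coding RNAs and the microRNAs cut from them are made from the maternal chromosome. The hairpins of the distal cluster follow one another within a single transcribed stretch that ends in the non-coding RNA Mirg. They are best known from brain, placenta, embryo and mesenchymal cells. Dicer cuts each hairpin into a duplex of which mostly one arm, the guide, enters an Argonaute protein and the other, the passenger, is discarded. The seed, bases 2 to 8 of the mature strand, pairs with target mRNAs. In mice, miR-329, miR-494 and miR-495 are known as restraints on vessel growth after limb ischaemia.

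In RefSeq's annotation of GRCm38.p6 the member hairpins lie on the plus strand of chromosome 12, over 34.7 kb (chr12:109709060-109743795). All 36 members start beyond the end of Rian, a further non-coding RNA of the locus. Only 9 of them lie inside Mirg as annotated there, among them miR-154, miR-409-3p, miR-410 and miR-453, and 27 lie before its annotated start. The group is therefore called the distal cluster here. RefSeq held a mature sequence for 33 members and none was matched for miR-376c, miR-485 and miR-487b. Assay names without an arm were read as the arm that the older name stands for.

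The 33 sequences had 33 different seeds, so the members shared genome position and not a target-pairing seed. The first sequences shown are those of the 6 members with the smallest unadjusted p, with the seed in capitals.
miR-453: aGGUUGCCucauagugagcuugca
miR-543: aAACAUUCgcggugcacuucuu
miR-495: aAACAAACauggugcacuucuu
miR-380-5p: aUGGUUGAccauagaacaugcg
miR-494: uGAAACAUacacgggaaaccuc
miR-329: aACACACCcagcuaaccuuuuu

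Of these, miR-329 shared its seed with miR-362-3p, an assay from outside the cluster, whose log2 fold change was -0.75. miR-495 and miR-543 were alike in 18 of 22 positions and differed by A6U, A7U, A9G and U10C, counted from the 5′ end with the base of miR-495 first. The next sequences are those of the 3 members with a difference nearest to 0, followed by miR-376a, a near copy of miR-376b, again with seeds in capitals.
miR-376b: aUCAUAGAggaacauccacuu
miR-154: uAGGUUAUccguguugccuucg
miR-323-3p: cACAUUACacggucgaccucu
miR-376a: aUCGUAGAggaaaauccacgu

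miR-376a and miR-376b were alike in 18 of 21 positions and differed by G4A, A13C and G20U, with the base of miR-376a first. The last set holds the other members that gave no product in at least 1 Dicer_KO aorta but were detected in every Dicer_WT aorta, with miR-381, the near copy of miR-300.
miR-300: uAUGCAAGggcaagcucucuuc
miR-381: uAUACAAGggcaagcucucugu
miR-409-5p: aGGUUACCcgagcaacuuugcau
miR-668: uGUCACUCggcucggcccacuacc

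miR-381 and miR-300 were alike in 19 of 22 positions and differed by A4G, G21U and U22C, with the base of miR-381 first. The substitutions at position 4 lie within the seed in both near-copy pairs.

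Each assay was read once per aorta as a threshold cycle (Ct), where 1 cycle less means about 2 times the RNA and 40 marks a well without product. Below Ct 35, taken as detected, lay 26, 27 and 25 members in Dicer_WT replicates 1 to 3 and 25, 24 and 22 in Dicer_KO replicates 1 to 3. Over all microRNA assays the ranges were 374 to 378 in Dicer_WT and 349 to 366 in Dicer_KO aortas. Of the members, 21 were detected in all 6 aortas, 7 in some and 8 in none. For the 21, the mean Ct in Dicer_WT aortas ran from 22.7 to 32.4, and amounts cannot be ordered between assays, whose efficiencies differ. The 3 lowest mean Ct values in Dicer_WT were those of miR-411 at 22.69 ± 0.195, miR-382 at 23.04 ± 0.102 and miR-379 at 23.37 ± 0.318 (SD, n = 3 each). The 8 silent members were miR-377, miR-380-3p, miR-485, miR-487b, miR-654-5p, miR-666-5p, miR-679 and miR-758, of which miR-487b alone gave a late product, at Ct 35.9 in Dicer_KO replicate 2.

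The genotypes were compared to see how the cluster's microRNAs in the aorta of these mice differ once Dicer is deleted by the myeloid Cre. Of 26 members tested, those detected in at least 2 aortas of 1 group, 0 passed in either direction (limma, adjusted p under 0.05 over 377 assays), where 1.86% of all assays were lower and 0% higher. The smallest adjusted p among them was 0.0542. At an unadjusted p under 0.05, 14 members lay lower and 0 higher, against a background of 24.4% lower and 2.39% higher. Undetected wells were set to Ct 35 for this comparison. Without Dicer_KO replicate 1, the aorta of its group nearest to Dicer_WT, 9 of 26 members passed as lower, where 14.6% of all assays did. Among the 9 was miR-300, whose remaining Dicer_KO values were all wells set to Ct 35. Over only the assays detected in all 6 aortas, 5 of 21 members passed as lower (miR-329, miR-380-5p, miR-494, miR-495 and miR-543), where 6.06% of assays did.

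Among the 21 members detected in all 6 aortas, 20 had a log2 fold change below 0, where 77.9% of the 330 assays so detected did. Under each of 5 other scalings 12 of the 21 stayed below 0. The share of the 330 that did so was not counted. Of these 21 members 0 passed the threshold over 377 assays, beside 0.606% of the 330. In 14 of the 21 every Dicer_KO aorta lay below every Dicer_WT aorta, and in 0 every one lay above it. The background among the 330 was 32.1% below and 2.73% above. The 21 had a median log2 fold change of -0.75, against -0.37 over the 330. An unadjusted p under 0.05 was reached by 12 of the 21, all lower, against 24.2%. Counting the members with undetected wells too, groups parted downward in 17 of 26 members, where 32.6% of the 377 assays did, and 25 of 26 lay below 0, where 78.2% did. Of these further 5, miR-300 and miR-496 met the detection filter through the Dicer_WT group alone.

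**Figure D1:**
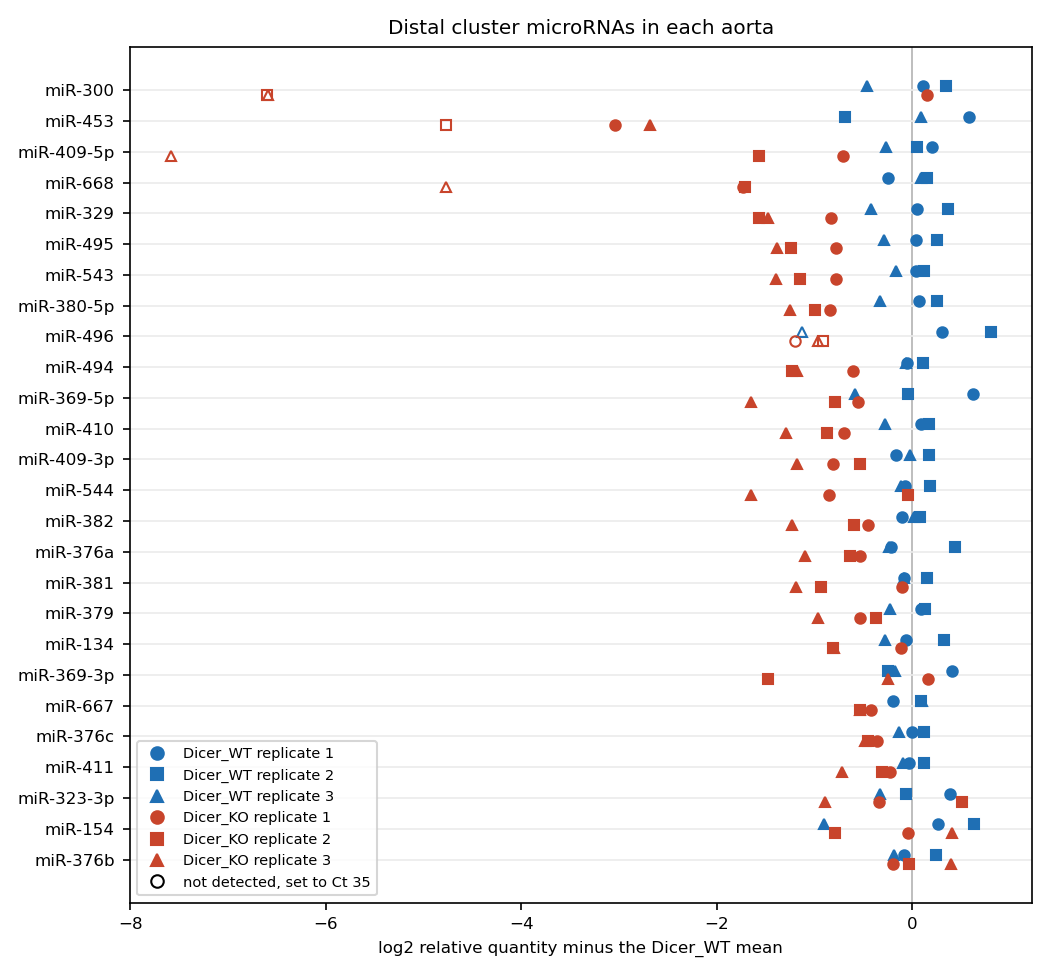
Log2 relative quantity of each tested member (rows) in each aorta, minus the mean of the 3 Dicer_WT aortas (horizontal axis). Blue marks stand for Dicer_WT and red marks for Dicer_KO replicates, and open marks are wells without detection, set to Ct 35. On the authors' references red marks lie left of all blue marks in 17 of 26 rows (9 of 26 relative to U87 and Y1, not drawn). In the other rows as drawn the groups overlap, among them those of miR-376b, miR-154 and miR-323-3p.

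Among the members detected in every aorta, 5 had the smallest unadjusted p, with log2 fold changes from -1.29 to -1.01. Their hairpins lie 2.74 to 9.69 kb from the start of the miR-379 hairpin, and miR-323-3p, a member near 0, lies between them at 3.45 kb. The values given next are the relative quantities deposited by the authors, scaled to a geometric mean of 1 in Dicer_WT. miR-329 was at 1.04, 1.29 and 0.746 in Dicer_WT replicates 1 to 3 and at 0.561, 0.336 and 0.361 in Dicer_KO replicates 1 to 3. Its groups did not overlap and differed by -1.29 ± 0.308 on the log2 scale (SE, n = 3 each, limma adjusted p = 0.0746). miR-495 was at 1.03, 1.2 and 0.816 in Dicer_WT and at 0.583, 0.422 and 0.384 in Dicer_KO aortas. These groups too stood apart, by -1.13 ± 0.25 (limma adjusted p = 0.0691). miR-494, of which inhibition is known to reduce plaques in mice, was at 0.966, 1.08 and 0.96 in Dicer_WT and at 0.658, 0.425 and 0.441 in Dicer_KO aortas. Its difference was -1.01 ± 0.229 (limma adjusted p = 0.0691), and Dicer_KO replicate 1 lay nearest to the Dicer_WT aortas, as for miR-329 and miR-495.

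miR-543, the near copy of miR-495, had 1.03, 1.08 and 0.896 in Dicer_WT and 0.582, 0.45 and 0.381 in Dicer_KO aortas. The log2 fold change of -1.11 ± 0.22 (limma adjusted p = 0.0641) was close to that of miR-495, and cross-reaction of such similar assays was not tested. miR-380-5p had 1.05, 1.19 and 0.796 in Dicer_WT and 0.559, 0.504 and 0.42 in Dicer_KO aortas, a difference of -1.03 ± 0.23 (limma adjusted p = 0.0691). For both, every Dicer_KO aorta lay below every Dicer_WT aorta, with Dicer_KO replicate 3 the lowest. None of these 5 passed over all 377 assays, and each passed in some alternative settings: miR-495 in 4 of 19, miR-543 and miR-380-5p in 3 of 19 each, and miR-329 and miR-494 in 2 of 19 each.

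The 3 members with the lowest mean Ct in Dicer_WT had smaller differences than the members above, which were picked for a small p. miR-382 was at 0.931, 1.06 and 1.02 in Dicer_WT and at 0.732, 0.666 and 0.426 in Dicer_KO aortas, which gave a log2 difference of -0.76 ± 0.253 (SE, limma adjusted p = 0.137). miR-379, the first hairpin of the cluster, was at 1.06, 1.09 and 0.861 against 0.693, 0.773 and 0.513, a difference of -0.62 ± 0.228 (limma adjusted p = 0.153). miR-411, the next hairpin, was at 0.979, 1.08 and 0.942 against 0.858, 0.806 and 0.609, a difference of -0.42 ± 0.202 (limma adjusted p = 0.226). Groups did not overlap in any of the 3, and Dicer_KO replicate 3 was the lowest aorta in each. The differences of miR-411, miR-376c and miR-667 turned above 0 relative to U87 and Y1, by at most 0.095.

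The other tested members detected throughout had log2 fold changes from -0.997 (miR-369-5p) to -0.43 (miR-376c). Of these, miR-410 at -0.95 ± 0.24 and miR-409-3p at -0.84 ± 0.231 (SE, limma adjusted p = 0.0896 and 0.0997) had groups that stood apart. So did those of miR-376a (-0.75), miR-381 (-0.74), miR-667 (-0.49) and miR-376c (-0.43). The gap was narrow for miR-381, at 0.931 in Dicer_KO replicate 1 and 0.945 in Dicer_WT replicate 1. The groups overlapped for miR-369-5p, miR-544 (-0.84), miR-369-3p (-0.51) and the brain microRNA miR-134 (-0.57), which limits dendritic spine size in neurons. After quantile normalization miR-369-3p stood at 1.16, miR-369-5p at 0.99 and miR-381 at 0.24, above 0. For miR-134 the overlap came from Dicer_KO replicate 1, at 0.928 against 0.571 and 0.573 in the other Dicer_KO aortas.

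The 3 members nearest to 0 showed mixed groups. miR-376b had 0.948, 1.19 and 0.885 in Dicer_WT and 0.876, 0.982 and 1.32 in Dicer_KO aortas, so that the groups mixed at a log2 fold change of 0.06, with a 95% interval of -0.52 to 0.64 (limma adjusted p = 0.844). Its sign turned with the setting, to -0.16 without normalization and -0.10 relative to U6 alone. The near copy miR-376a and the namesake miR-376c had 0.692, 0.645 and 0.47 and 0.781, 0.732 and 0.716 in Dicer_KO aortas, each below every Dicer_WT value of the same assay. The difference between the miR-376 members was not tested. miR-154 had 1.2, 1.55 and 0.535 in Dicer_WT and 0.973, 0.58 and 1.33 in Dicer_KO aortas, so that each group spanned a wide range, and its interval ran from -1.37 to 1.10. miR-323-3p had 1.31, 0.96 and 0.794 against 0.788, 1.43 and 0.539, with an interval of -1.24 to 0.76. The intervals of miR-154 and miR-323-3p thus reach below the members' median of -0.84. Both turned above 0 with mean centring (0.23 and 0.13) and relative to U87 and Y1 (0.37 and 0.27).

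**Figure D2:**
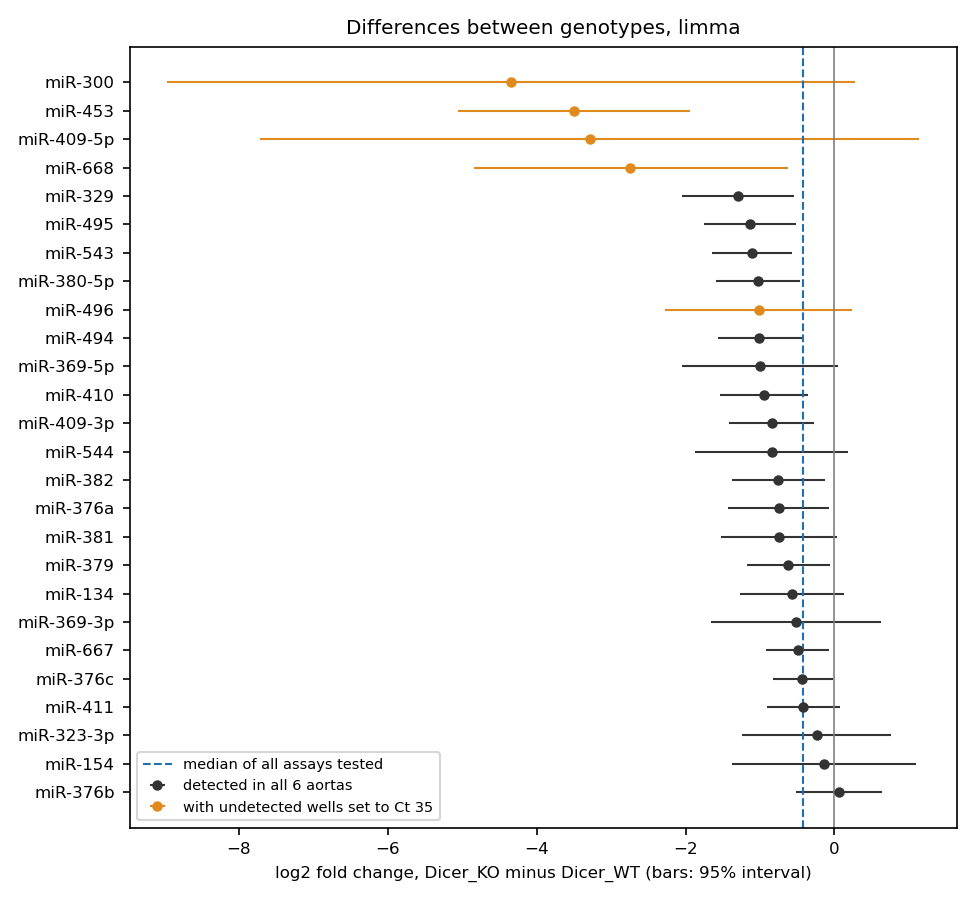
Log2 fold change of each tested member with its 95% interval from limma. Orange marks are members with wells set to Ct 35, and the dashed line is the median of all 377 assays tested, at -0.42 on the authors' references and 0.157 relative to U87 and Y1. The interval of miR-376b runs from -0.52 to 0.64, and those of miR-300 and miR-409-5p are among the others that cover 0.

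In 4 members a product seen in all Dicer_WT aortas was missing from 1 or 2 Dicer_KO aortas. miR-453 had Ct values of 29.1, 30.7 and 29.9 in Dicer_WT replicates 1 to 3 and of 33.0, 40 and 32.9 in Dicer_KO replicates 1 to 3. Every Dicer_KO aorta was later than every Dicer_WT aorta. With the silent well at Ct 35 the log2 fold change was -3.50 ± 0.632 (SE, limma adjusted p = 0.0542), the smallest p of the cluster. It was -2.86 with the silent well left missing (limma adjusted p = 0.0359). Over the alternatives this p ran from 0.0334 to 0.228, and miR-453 passed in 6 of 18.

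miR-668 had 30.0, 29.9 and 30.0 in Dicer_WT and 31.7, 31.995 and 40 in Dicer_KO aortas. Its groups stood apart with and without the silent well, which moved the log2 fold change from -1.72 to -2.74 ± 0.857 (limma adjusted p = 0.123 with the well, and 0.0359 with it missing). Over the alternatives this p ran from 0.00626 to 0.297. miR-409-5p had 26.7, 27.2 and 27.5 in Dicer_WT and 27.9, 29.0 and 40 in Dicer_KO aortas. Its value of -3.28 ± 1.8 (limma adjusted p = 0.247) rested on Dicer_KO replicate 3, without which it was -1.13.

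miR-300 had 27.9, 27.8 and 28.8 in Dicer_WT and 28.0, 40 and 40 in Dicer_KO aortas. Dicer_KO replicate 1 thus lay among the Dicer_WT aortas, whereas replicates 2 and 3 gave no product. The log2 fold change was -4.34 ± 1.88 (limma adjusted p = 0.202). It was -6.60 without Dicer_KO replicate 1, where miR-300 passed (limma adjusted p = 2.3e-04, the lowest of its alternatives, which reached 0.776), and 0.16 with the silent wells left missing. The near copy miR-381, measured on the other array card, gave a product in every aorta, at 30.4, 30.45 and 30.7 in Dicer_WT and 30.7, 31.8 and 32.003 in Dicer_KO aortas. The latest product of these 4 members in a Dicer_KO aorta came at Ct 33.0. Whether the missing products stem from the wells or the aortas was not tested, since each assay was read once.

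Further members were detected in few aortas. miR-496 had 33.2, 33.0 and 35.6 in Dicer_WT and 35.1, 35.9 and 35.8 in Dicer_KO aortas. Its Dicer_WT replicate 3 lay among the Dicer_KO aortas and, like them, was set to Ct 35, so that no bound on the fold can be given. The fitted log2 difference was -1.02 ± 0.507 (SE, limma adjusted p = 0.226), and it was -0.51 relative to U87 and Y1 and 0.076 after quantile normalization. miR-539 was detected only in Dicer_WT replicate 2, at 31.97, and miR-654-3p only in Dicer_KO replicate 2, at 32.1, and neither was tested. In the authors' deposited table of fold changes miR-654-3p is listed at 104, a value that comes from this single well. That table lists 10 members above 1, of which 9 were not tested here. For the members without product in any well it gives folds of 1.17 or 1.13, since Ct 40 was carried through as if measured.

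Both arms of a hairpin could be set side by side for 7 hairpins. For the miR-154 hairpin, the passenger miR-154* had 1.06, 1.48 and 0.635 in Dicer_WT and 0.683, 0.264 and 0.357 in Dicer_KO aortas, a log2 difference of -1.32 ± 0.469 (SE, limma adjusted p = 0.148), against -0.14 for miR-154. The arms parted most in Dicer_KO replicate 3, where miR-154 was the highest of its group. For miR-300 the passenger miR-300* was detected in every aorta, at 34.009 and 33.9 in Dicer_KO replicates 2 and 3, in which miR-300 gave no product, and at 33.9 in Dicer_WT replicate 3. Its groups overlapped, and its difference was -0.80 ± 0.584 (limma adjusted p = 0.346).

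The arms of miR-376b stood at 0.06 and, for the passenger, -0.37, and those of miR-411 at -0.42 and -0.62. For miR-376a, at -0.75, the passenger miR-376a* had 0.843, 1.34 and 0.885 in Dicer_WT and 0.795, 0.327 and 0.454 in Dicer_KO aortas (-1.03 ± 0.385, limma adjusted p = 0.16), with every Dicer_KO aorta below the Dicer_WT aortas. Arm labels instead of a star were given to both assays of miR-369 and miR-409. miR-369-3p had 1.33, 0.849 and 0.887 in Dicer_WT and 1.12, 0.362 and 0.848 in Dicer_KO aortas (-0.51 ± 0.465, limma adjusted p = 0.424). miR-369-5p had 1.54, 0.97 and 0.667 against 0.681, 0.58 and 0.318 (-0.997 ± 0.427, limma adjusted p = 0.199). Groups overlapped for both arms, and the lowest aorta was Dicer_KO replicate 2 for miR-369-3p and replicate 3 for miR-369-5p. miR-409-3p had 0.897, 1.13 and 0.986 against 0.571, 0.694 and 0.44, with groups apart, beside a silent well for miR-409-5p in Dicer_KO replicate 3. The other arm of miR-380-5p and both arms of miR-654 could not be compared for want of detection. In each of the 5 guide-passenger pairs except miR-300, the passenger had the lower value. In the pairs other than miR-300 the guide was read on the first array card and the passenger on the second. Both arms of miR-300 were read on the second card. Arm and card thus cannot be told apart in the pairs other than miR-300, and no difference between arms was tested. Of 9 star assays from these hairpins, 7 were tested, all 7 lay below 0 with a median of -0.71, of which 5 turned above 0 under at least 1 other scaling, and 0 passed the threshold, where 78.2% of all assays lay below 0 and 1.86% passed as lower. At an unadjusted p under 0.05, 2 of the 7 (28.6%) were lower, miR-154* and miR-376a*, a share near the 24.4% of all assays.

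**Figure D3:**
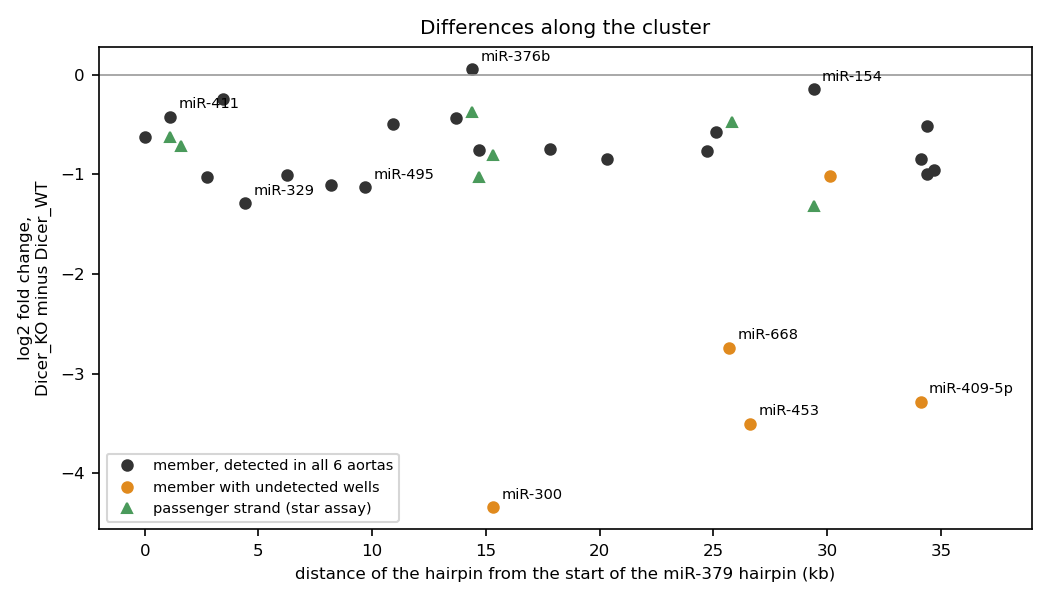
Log2 fold change of the tested members (circles) and passenger strands (triangles) against the distance of their hairpin from the start of the miR-379 hairpin, in kb. Orange circles are members with undetected wells. Under the authors' references lower values are found along the whole cluster, from miR-329 at 4.42 kb to miR-410 at 34.7 kb, and miR-376b at 14.4 kb and miR-154 at 29.4 kb stand nearest to 0.

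The difference was set against the order of the hairpins. Over 20 members detected in all aortas with an annotated hairpin, Spearman's rho between log2 fold change and position was 0.069, and with the mean Ct in Dicer_WT it was -0.081. Over the 19 of them with a sequence, whose GC content ran from 23.8% to 65.2%, rho with GC content was 0.36. These points share the same 6 aortas and are given as a description. Members detected in all aortas had a median of -0.84 inside the annotated Mirg (5 members) and of -0.75 before it (16 members).

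The 3 Dicer_KO aortas were not alike. The median deviation of the 21 members from the Dicer_WT mean was -0.53, -0.79 and -1.18 in Dicer_KO replicates 1 to 3, against 0.00, 0.16 and -0.18 in the Dicer_WT aortas. Over all assays tested the Dicer_KO aortas stood in the same order, at -0.21, -0.40 and -0.62. Dicer_KO replicate 3 was the lowest of its group for 14 of the 21 members and replicate 1 the highest for 15. The SD between aortas was larger in Dicer_KO for 15 of the 21 members, with medians of 0.329 in Dicer_KO and 0.225 in Dicer_WT. Dicer_KO replicate 3 also had the fewest members detected.

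The size of the difference depended on the reference RNA. The median of the 21 members was -0.98 without normalization, -0.92 relative to U6 alone, -0.39 with mean centring, -0.14 after quantile normalization and -0.24 against U87 and Y1, which are further control RNAs. The median of the 330 assays detected in all aortas moved along, to -0.58, -0.58, -0.08, 0.017 and 0.19 in the same order. The members' median thus lay below that of the 330 by 0.378 under the authors' references and by 0.161 to 0.431 under the other scalings. Groups parted downward in 8 of the 21 with mean centring, in 7 after quantile normalization and in 6 relative to U87 and Y1, where 62, 43 and 26 of the 330 did. Of the 26 members, 16 stayed below 0 under all 5 other scalings and 10 lay above 0 under at least 1. The share of all assays that stayed below 0 was not counted. U87 itself differed by -0.44 between the genotypes (exact permutation p = 0.1, two-sided, the smallest possible with 3 against 3) and Y1 by -0.71 (exact permutation p = 0.2).

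**Figure D4:**
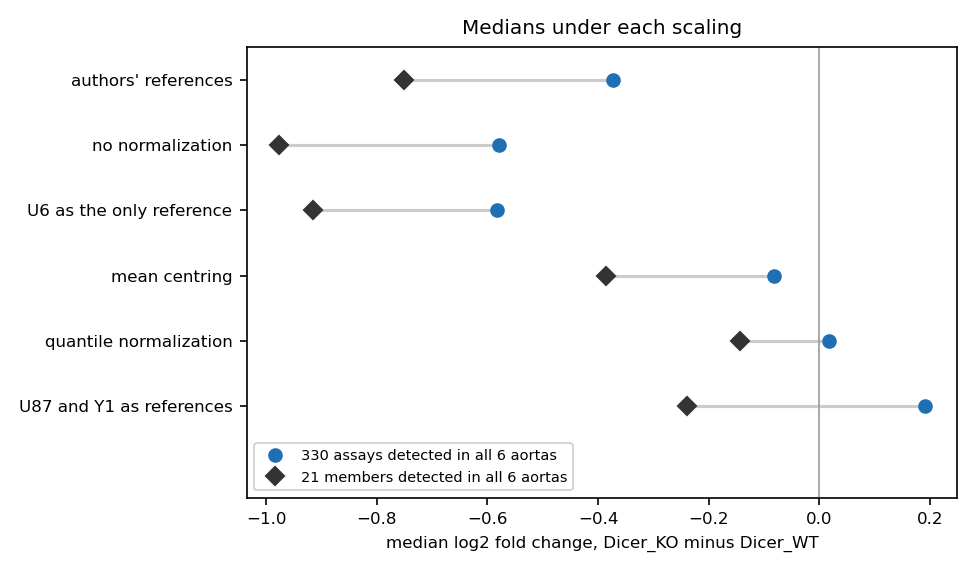
Median log2 fold change of the 21 members detected in all 6 aortas (diamonds) and of the 330 assays so detected (circles) under the authors' references and 5 other scalings. The diamond lies left of the circle in each row, by 0.161 after quantile normalization and by 0.303 to 0.431 in the other rows.

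The proximal microRNAs of the same locus, around the antisense transcript of Rtl1, were measured on the same arrays. Of 16 such assays 13 were tested. All 13 lay below 0 with a median of -0.80, of which 3 turned above 0 under at least 1 other scaling. The threshold was passed by 2, both lower: miR-431 (-2.26 ± 0.353, SE, limma adjusted p = 0.04) and miR-665. Over all assays 78.2% lay below 0 and 1.86% passed as lower. miR-431 had Ct values of 24.3, 24.7 and 25.3 in Dicer_WT and of 26.6, 27.2 and 28.0 in Dicer_KO aortas. miR-431 passed in 12 of 19 alternatives, with an adjusted p from limma of up to 0.186, and missed the threshold with U6 as the only reference, with no filter on detection and without each single aorta except Dicer_KO replicate 1. miR-665 gave no product in any Dicer_KO aorta, so every Dicer_KO value was a well set to Ct 35. On the authors' references it was then at least 19.8-fold lower, a log2 fold change of -4.31. This was -3.79 relative to U87 and Y1 and -3.31 after quantile normalization. The limma adjusted p of 8.77e-05 rests on the set wells and does not measure variation between Dicer_KO aortas. It met the detection filter through the Dicer_WT group alone. Groups parted downward in 8 of 10 proximal assays detected in all aortas, beside 14 of 21 in the distal cluster and 32.1% of the 330 assays so detected. Whether the 2 groups of the locus differ was not tested.

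Summed levels of microRNAs that mark cell types were set beside the cluster. Relative to its mean in Dicer_WT, the summed level of the 26 tested members ran from 0.917 to 1.11 in Dicer_WT and from 0.532 to 0.739 in Dicer_KO aortas. Over all 377 assays tested the sum ran from 0.928 to 1.07 and from 0.652 to 0.905. All sums were taken on the authors' references only. Such sums treat a cycle as the same amount in every assay, and assays with a low Ct weigh most in them. The sum of 9 myeloid markers ran from 0.822 to 1.21 and from 0.424 to 0.688, that of 3 fibroblast and mesenchymal markers on the array from 0.892 to 1.2 and from 0.467 to 0.901, and that of 2 smooth muscle markers from 0.95 to 1.05 and from 0.622 to 0.944. In these lists 0 markers passed over all assays. Neuronal markers, 8 of 8 tested with a median of 0.00, ran from 0.88 to 1.09 and from 0.588 to 1.1, and striated muscle markers from 0.938 to 1.08 and from 0.593 to 1.19, with miR-208b undetected in every aorta. The sum of 2 endothelial markers ran from 0.875 to 1.06 and from 0.733 to 1.38, and that of 7 epithelial markers from 0.808 to 1.3 and from 0.744 to 1.45. The sum of 2 erythroid markers ran from 0.395 to 1.63 and from 1.84 to 2.67, and the hepatocyte marker miR-122 from 0.286 to 1.81 and from 1.55 to 2.72. The part of cell composition in the lower values of the cluster was not tested.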

How the data were processed

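Ct values per assay and aorta, and relative quantities (a linear ratio), were deposited by the authors, as was a table of fold changes, a linear ratio of Dicer_KO over Dicer_WT. Per the labels' protocols, RNA was isolated with a mirVana kit, reverse-transcribed and preamplified with TaqMan reagents. The sources used here do not name the instrument, threshold or software. The log2 of the deposited ratio equalled the mean Ct of that aorta's reference RNAs on the card (U6, snoRNA135 and snoRNA202, on the second card also snoRNA429) minus the assay's Ct, set to a Dicer_WT mean of 0 (largest difference 5.22e-06). In the deposited Ct table, 5 cells had a decimal comma, read as a point. For all 36 members, the deposited fold was within 1% of the ratio of arithmetic means.

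Wells at Ct 35 or later were set to Ct 35 on the relative scale. An assay was kept when at least 2 of the 3 aortas of either group detected it, and the 377 kept of 517 were compared on the log2 scale with limma 3.58.1 in R 4.3.3 (lmFit, eBayes, two-sided, Benjamini-Hochberg over all 377, threshold 0.05), tested on simulated data. Control RNAs were compared by exact permutation. The replicates are called biological in the labels and were taken as separate mice. With 3 arrays a group, their number limits the precision. The members and lists were chosen with earlier results of these data known. Named in full were the 6 members with the smallest p, the 3 nearest to or above 0, the 3 with the lowest Ct, members with both arms and members detected in 1 to 5 aortas. Same-numbered aortas did not deviate together, so the replicate number was used as a block in an alternative only.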

Additional observations from a re-analysis of the deposited data

How the results depend on the processing

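In all, 19 alternatives were run, and counts of parted groups were added after the data had been seen. Of the 26 members, 0 were called higher in any alternative, where at most 9 of 377 assays were (without Dicer_KO replicate 1). Against 0 called lower (1.86% of all assays), 1 was without normalization (2.39%), 5 at a Ct cutoff of 32 (6.69%), 2 with undetected wells missing (1.37%), 5 over assays detected in all 6 aortas (6.06%) and 2 with an intensity trend (5.31%). With single aortas left out 0 to 9 were, the 9 without Dicer_KO replicate 1 (14.6%). A total of members called over the alternatives is not given, since the share of all assays so called was not counted. With the replicate number as a block (replicate block) the count stayed at 0. Same-numbered aortas correlated at -0.084, -0.097 and 0.043 in their deviations from the group means. The members' median of -0.84 moved to -0.48 with mean centring, -0.33 relative to U87 and Y1 and -0.34 after quantile normalization, and from -0.94 to -0.66 with single aortas left out. Groups parted downward in 17 members (32.6% of all assays), in 11 with mean centring (20.2%), 9 relative to U87 and Y1 (10.3%) and 10 after quantile normalization (14.9%). With single aortas left out they did so in 17 to 21, with 21 without Dicer_KO replicate 1 (53.6% of all assays) and 20 without Dicer_WT replicate 3 (55.7%).

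The median of all assays turned to 0.16 relative to U87 and Y1 and to 0.0032 after quantile normalization. Turns of single members without normalization and relative to U6 were those of miR-376b (-0.16 and -0.10). With mean centring miR-154 turned to 0.23 and miR-323-3p to 0.13. Relative to U87 and Y1, miR-154 turned to 0.37, miR-323-3p to 0.27, miR-376c to 0.082, miR-411 to 0.095 and miR-667 to 0.017. After quantile normalization miR-154 turned to 0.30, miR-323-3p to 0.33, miR-369-3p to 1.16, miR-369-5p to 0.99, miR-381 to 0.24 and miR-496 to 0.076. miR-300 turned to 0.16 with undetected wells missing. With single aortas left out, miR-154 ranged from -0.59 to 0.19, with 0.18 without Dicer_WT replicate 2 and 0.19 without Dicer_KO replicate 2, miR-323-3p from -0.62 to 0.085, the latter without Dicer_KO replicate 3, and miR-376b -0.027 without Dicer_WT replicate 3 and -0.11 without Dicer_KO replicate 3. The cause of these turns was not tested. The 3 aortas a group and single wells limit what can be called.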
